A study of Mus musculus with 96 samples.

Results

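The hearts of Scx-/- mice were compared with the hearts of wild-type mice, both at 3 weeks of age. The comparison used 6 of the 96 libraries of the series, 3 wild-type and 3 Scx-/-, taken by their tissue and genotype labels, and the 12799 of 41575 listed gene symbols that had a count in at least 1 of these 6 libraries. The series measured 16 tissues of both genotypes by multiplexed RNA-seq, where a barcode in the cDNA tells which sample a read came from. Whole organs were frozen at necropsy, so a heart sample can hold muscle cells of the atria and ventricles together with fibroblasts, vessels, valves, and blood. No treatment was named for either genotype. The part of *Scx* missing from the mutant allele, the strain, and the sex are not stated in the labels or methods. Nothing there says that replicates were separate mice. By their sex-linked counts (*Xist* 50, 1, and 0, *Ddx3y* 0, 20, and 17), the 3 Scx-/- hearts did not all come from 1 mouse. The p-values measure the spread between these samples, and its technical part is not known.

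*Scx* encodes scleraxis, a basic helix-loop-helix transcription factor of tendon and ligament progenitors that is also made by heart valve cells and cardiac fibroblasts, and proteins of this class bind the E-box motif CANNTG. Heart muscle contracts when calcium leaves the sarcoplasmic reticulum, a store in which calsequestrin holds the calcium, and activates the myosin and actin filaments of the sarcomere. Mouse ventricles switch after birth from the slow beta myosin heavy chain of *Myh7* to the fast alpha chain of *Myh6*, while fibroblasts and valve cells lay down the fibrillar collagens that tie the muscle cells together.

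Promoter sequences of 4 genes are shown because these genes carry the main comparisons of muscle and matrix genes and because the deleted factor belongs to a class that reads E-boxes. They are the RefSeq stretches of the GRCm38.p6 build from 250 bases before to 50 bases after the annotated start, written 5′ to 3′ along the strand of the gene, with E-box letters (CANNTG, which reads alike on both strands) in capitals. *Myh7* (chr14:54994577-54994876, minus strand, the first of 2 starts in the table), *Casq1* (chr1:172219846-172220145, minus strand), and *Thbs4* (chr13:92794769-92795068, minus strand) each held 2 matches, and *Col1a2* (chr6:4505368-4505667, plus strand) held 0.
Myh7: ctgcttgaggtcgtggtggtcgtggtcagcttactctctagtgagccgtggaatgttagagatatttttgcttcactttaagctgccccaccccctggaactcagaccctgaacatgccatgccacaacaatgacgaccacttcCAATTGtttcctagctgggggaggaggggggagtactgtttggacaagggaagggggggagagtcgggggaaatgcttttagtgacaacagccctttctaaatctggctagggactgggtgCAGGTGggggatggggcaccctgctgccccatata
Casq1: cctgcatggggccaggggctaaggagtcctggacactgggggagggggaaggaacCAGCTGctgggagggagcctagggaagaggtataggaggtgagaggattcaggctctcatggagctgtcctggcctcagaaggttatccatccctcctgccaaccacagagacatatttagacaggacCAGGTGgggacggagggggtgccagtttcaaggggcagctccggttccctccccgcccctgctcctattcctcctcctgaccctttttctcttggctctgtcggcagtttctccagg
Thbs4: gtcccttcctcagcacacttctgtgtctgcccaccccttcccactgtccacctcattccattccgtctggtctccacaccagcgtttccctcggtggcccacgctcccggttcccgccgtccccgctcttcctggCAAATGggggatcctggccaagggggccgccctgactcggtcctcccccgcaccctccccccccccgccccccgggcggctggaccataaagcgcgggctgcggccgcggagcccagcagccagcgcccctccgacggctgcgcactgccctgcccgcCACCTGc
Col1a2: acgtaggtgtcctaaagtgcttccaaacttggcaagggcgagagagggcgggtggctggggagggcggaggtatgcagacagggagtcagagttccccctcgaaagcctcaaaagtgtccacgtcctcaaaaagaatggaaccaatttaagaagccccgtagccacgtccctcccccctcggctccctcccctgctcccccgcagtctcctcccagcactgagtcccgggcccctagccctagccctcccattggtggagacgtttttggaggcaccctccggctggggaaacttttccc
Of 32851 promoters of 300 bases in the same table, 23756 (72.3%) held at least 1 such match, with a median of 1 per promoter, so a match here is common and describes letters only. *Serpinh1*, whose sequence is not shown, held 0 matches, and *Col1a1* and *Dhrs7c* had no entry in the table.

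The libraries differed in depth, and 1 of them was very shallow. Wild type 2 held 11244 counts and 2977 detected genes, against 159806 to 439907 counts and 6905 to 9798 genes in the other 5 libraries, so a single count was worth 88.9 CPM (its count scaled to a common library total) in wild type 2 and 2.27 to 6.26 CPM elsewhere. Differences are therefore given with all libraries and, where leaving out wild type 2 changes a call, without it. All 6 libraries carried cardiac muscle RNA, since *Myh6* lay at 4358 to 7034 CPM in the heart libraries and its mean of 5717 CPM exceeded the 59.4 CPM of the next tissue, lung. Of 20 cardiac sarcomere genes, 14 had their highest mean in heart among the 16 tissues. *Scx* itself had 0 counts in all 6 heart libraries, so the genotype could not be checked in this tissue. No scleraxis mRNA was detectable in wild-type heart at this depth, where 3 counts would be 6.82 to 267 CPM in these libraries. In skeletal muscle, *Scx* had 0, 11, and 7 counts in wild types and 0 in each Scx-/- library.

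Few genes passed the stricter of 2 criteria, and the looser one is not adjusted for the number of genes tested. With edgeR's quasi-likelihood test and Benjamini-Hochberg adjustment over all genes, 1 gene was higher (0.00781% of 12799) and 4 were lower (0.0313%) in Scx-/- hearts at an adjusted p under 0.05, and with plain library totals for scaling 1 was higher and 24 were lower. At the thresholds the study used, an unadjusted p under 0.05 and a change above 2-fold, 168 genes were higher (1.31%) and 268 were lower (2.09%). These 436 genes are 3.41% of those tested, and an unadjusted p under 0.05 is reached by up to 5% of unchanged genes when a test keeps its level, so the looser calls are given as descriptions. With DESeq2, the tool the study used, 125 genes were higher (0.977%) and 175 lower (1.37%) at the same thresholds. Calls below are by edgeR unless DESeq2 is named, and where DESeq2 on all 6 libraries called other members of a list, these are given. Many of the edgeR calls rested on few counts: 98 of the 168 higher genes had 0 counts in all wild-type hearts and 184 of the 268 lower genes had 0 counts in all Scx-/- hearts, and only 37 and 82 of them reached a mean of 100 CPM in either genotype. Without wild type 2, the stricter criterion gave 1 higher (0.00788% of 12695) and 5 lower genes (0.0394%), and the looser one 106 higher (0.835%) and 170 lower (1.34%), of which 76 and 116 were also called in the same direction with all 6 libraries. Wild type 2 was the highest wild-type library for 124 of the 268 lower genes. For orientation, the CPM of the genotypes did not overlap, with Scx-/- hearts higher, for 482 genes (3.77%), and with Scx-/- hearts lower for 282 genes (2.2%). The median difference over all genes was -0.06 (log2, Scx-/- minus wild type) with all libraries and -0.24 without wild type 2, so list medians are read beside these values.

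**Figure D1:**
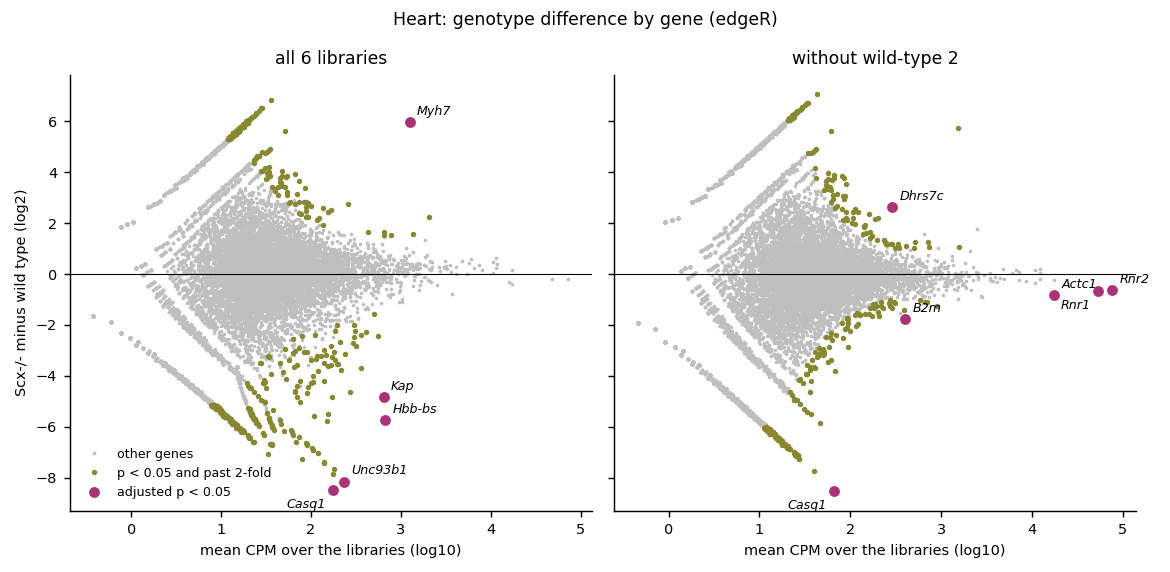
Difference between Scx-/- and wild-type hearts for each gene (vertical axis, log2, edgeR) against its mean level (horizontal axis, log10 CPM), with all 6 libraries on the left and without wild type 2 on the right. Large points have an adjusted p under 0.05, mid-sized points pass the study's thresholds, and the slanted bands of points along the edges are genes with 0 counts in 1 genotype. *Casq1* is the 1 gene with a large point in both panels.

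Among contractile genes, *Myh7* stood out. *Myh7*, the beta myosin heavy chain of the fetal ventricle and of slow muscle, had 30, 0, and 1 counts in wild types 1 to 3 (68.2, 0, and 3.55 CPM) and 197, 498, and 646 counts in the Scx-/- hearts (899, 3116, and 3480 CPM). Every Scx-/- library lay above every wild-type library, and the lowest Scx-/- value was over 10 times the highest wild-type value. The difference was 5.97 ± 0.90 (log2, SE), with an edgeR adjusted p of 5.07e-07. Without wild type 2 the difference was 5.73 ± 1.64, with an adjusted p of 0.873, so the stricter call rested on a library in which a count of 0 stands for up to 267 CPM, while the looser call held. In wild-type mice the mean *Myh7* level of heart, 23.9 CPM, was below those of cartilage, muscle, and bone, and in Scx-/- mice the heart mean, 2499 CPM, was the highest of the 16 tissues. The gene lies at chr14:54970684-54994626 on the minus strand (GRCm38). It sits beside *Myh6*, a related gene with which some reads could be shared. *Myh7* also overlaps the antisense transcript *Mhrt*, which was chosen after its values were seen. *Mhrt* had 64, 0, and 40 counts in wild types and 4, 12, and 19 in Scx-/- hearts. The strand setting of the counting is not stated, so reads of *Myh7* and *Mhrt* cannot be told apart where they overlap.

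Of the other 19 sarcomere genes, *Myom2* was the 1 called with all libraries. *Myh6*, the adult alpha chain, was measured at 5490, 4358, and 5108 CPM in wild types and 6712, 7034, and 5603 CPM in Scx-/- hearts, a difference of 0.43 that did not pass either criterion (adjusted p = 0.931). *Myom2*, an M-band protein that crosslinks myosin filaments, had 966, 178, and 696 CPM in wild types and 1562, 2340, and 2354 CPM in Scx-/- hearts, with no overlap. It rose by the looser criterion (1.55 ± 0.71, adjusted p = 0.738) and also without wild type 2 (1.08 ± 0.27, adjusted p = 0.113). By the looser criterion, *Myh7* and *Myom2* of the 20 sarcomere genes tested were called higher and 0 lower, in both fits. Over all genes, 1.31% were called higher with all libraries and 0.835% without wild type 2. The list median was 0.32 with all libraries and -0.07 without wild type 2, a change of sign. The regulatory light chain gene *Myl2* (9813, 9160, and 11959 CPM against 15839, 12553, and 10586 CPM) and the essential light chain gene *Myl3* overlapped between genotypes. Cardiac alpha actin, *Actc1*, was measured at 19209, 15030, and 24707 CPM in wild types and 18236, 13498, and 11609 CPM in Scx-/- hearts. Its difference of -0.41 was not called with all libraries (adjusted p = 0.931), and without wild type 2 it was lower by the stricter criterion (-0.82 ± 0.13, adjusted p = 5.75e-06), although under 2-fold.

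Of the genes of atrial muscle, 3 were called higher in Scx-/- hearts, and several varied widely among the wild-type hearts. *Nppa*, which encodes atrial natriuretic peptide, had 1614, 178, and 92.4 CPM in wild types and 4077, 2747, and 3739 CPM in Scx-/- hearts, with no overlap. It rose by the looser criterion (2.24 ± 0.71, adjusted p = 0.738) but not without wild type 2 (1.76 ± 1.48, adjusted p = 0.873). Wild type 3 was low for this gene even though it was well sequenced. The same library was low for the atrial light chain genes *Myl4* (918, 0, and 67.5 CPM against 1306, 1151, and 1228 CPM) and *Myl7* (1753, 178, and 56.8 CPM against 1858, 1283, and 1702 CPM) and for *Sln*, which encodes sarcolipin, the atrial inhibitor of the calcium pump (493, 623, and 0 CPM against 991, 601, and 1158 CPM). *Myl4* and *Sln* rose by the looser criterion (1.52 ± 0.74 and 1.66 ± 0.77) and lost that call without wild type 2, and *Myl7* did not pass (1.04 ± 0.71). Leaving out wild type 1, the highest wild type for 3 of these 4 genes, worked the other way: *Nppa* and *Myl7* then passed the stricter criterion (5.26 and 4.60, adjusted p = 0.00310 and 0.0453, 3 higher genes in all or 0.0253%), in a fit where the median of all genes was 0.47. *Nppa* also passed it with DESeq2-type size factors (adjusted p = 0.0381). These 3 calls were among 10 atrial genes tested (1.31% of all genes were called higher), 0 were lower, and 9 had a positive difference, with a median of 1.39. In the fit without wild type 2, 1 was called higher (0.835% of all genes were), 0 lower, and the median was 1.04. That 1 gene was *Pam*, an atrial granule enzyme that amidates peptides, which edgeR did not call with all libraries (493 and 284 CPM against 922 to 1001 CPM, 1.07 ± 0.35, adjusted p = 0.873). With DESeq2 on all 6 libraries, the higher atrial genes were *Nppa* and *Pam*. The summed level of the atrial genes was 5412, 1156, and 561 CPM in wild types and 9428, 6977, and 8873 CPM in Scx-/- hearts, and *Bmp10* had 0 counts in all 6 libraries. In whole organs, more cells of a type and more RNA per cell cannot be told apart, and the part that the atrial share of each sample played in these values was not tested.

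**Figure D2:**
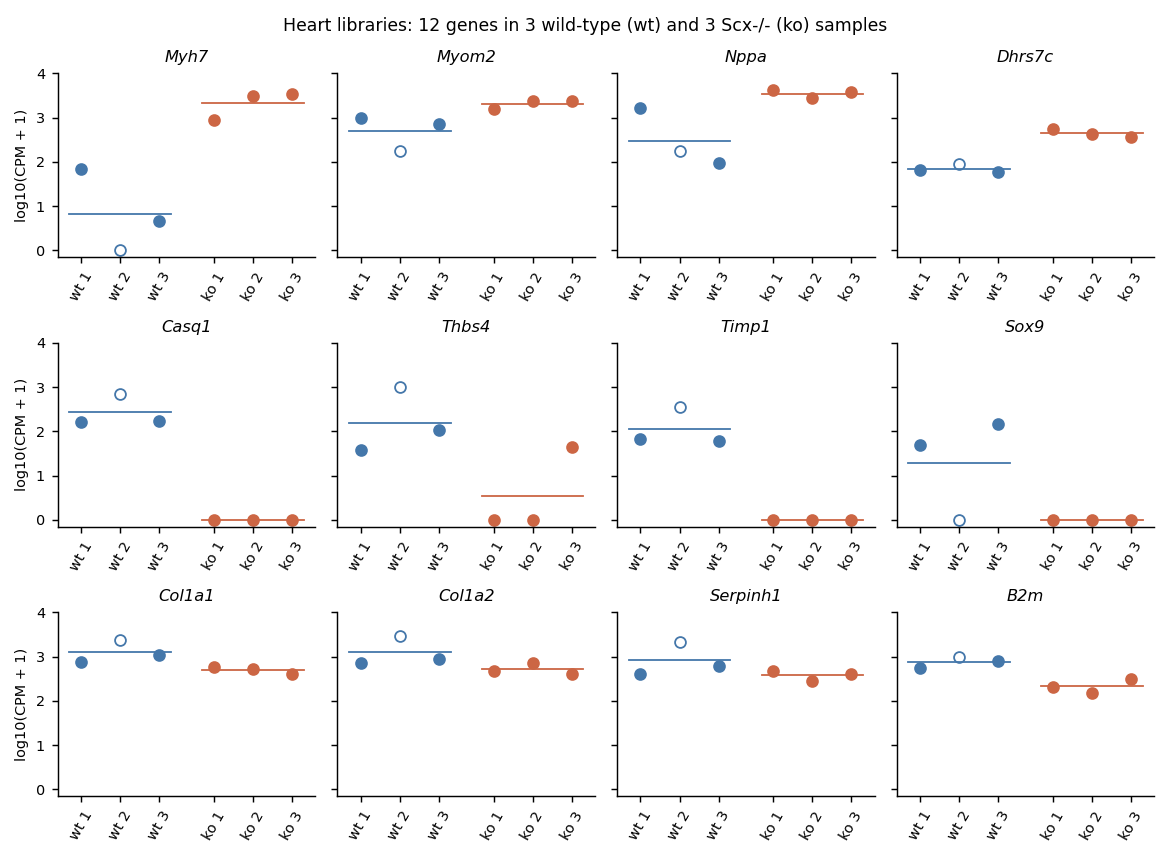
Level of 12 genes in each heart library, as log10(CPM + 1) on a shared vertical axis, with wild-type hearts in blue, Scx-/- hearts in orange, and the shallow wild type 2 as an open circle. Lines are the means of the plotted values. The Scx-/- points of *Myh7*, *Myom2*, *Nppa*, and *Dhrs7c* all lie above the wild-type points, those of *Casq1* and *Timp1* lie at 0 counts, and those of *Serpinh1* overlap the wild-type points.

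Of the genes that handle calcium in striated muscle, *Casq1* had no counts in Scx-/- hearts and most others overlapped between genotypes. *Casq1*, the calsequestrin of skeletal muscle sarcoplasmic reticulum, had 71, 8, and 48 counts in wild types (161, 711, and 170 CPM) and 0 counts in all 3 Scx-/- hearts. With counts pooled by genotype and 3 counts over the Scx-/- group as the floor, it was at least 32.6-fold lower. Without wild type 2 it was at least 31.0-fold lower. These bounds, and those given below for other genes, cover counting error only and not the spread between libraries. The edgeR adjusted p was 0.00302 with all libraries and 0.000828 without wild type 2, and *Casq1* was the only gene with an adjusted p under 0.05 in both. With 1 of the 3 Scx-/- libraries left out in turn, the adjusted p was 0.208 to 0.470. *Casq1* lies at chr1:172209894-172219868 on the minus strand. *Casq2*, the calsequestrin of heart muscle, overlapped between genotypes (555, 178, and 1126 CPM against 616, 732, and 442 CPM, adjusted p = 0.978), and was chosen after its values were seen. *Casq1* belonged to a list of 19 skeletal muscle markers of which 12 were tested. Of the other 18, 7 had 0 counts in all 6 heart libraries, among them *Myh2*, *Myog*, and *Myod1*, and 9 had no more than 8 counts in any, among them *Tnnt3*, *Atp2a1*, *Tnni2*, and *Mylpf*. The remaining members were *Myl1*, a myosin light chain of fast muscle (18, 0, and 23 counts in wild types and 18, 1, and 4 in Scx-/- hearts), and *Mybpc2*, a myosin-binding protein of fast muscle (1, 0, and 0 against 2, 17, and 0), neither of them called. Without *Casq1* the list summed to 59.1, 267, and 95.9 CPM in wild types and 187, 169, and 37.7 CPM in Scx-/- hearts, with overlap. The skeletal muscle libraries held 6370 to 8156 CPM of *Casq1* in wild types and 5146 to 6572 CPM in Scx-/- mice.

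*Dhrs7c*, a short-chain dehydrogenase of the muscle sarcoplasmic reticulum, had 63.6, 88.9, and 56.8 CPM in wild types and 548, 426, and 356 CPM in Scx-/- hearts, with no overlap. It rose by the looser criterion with all libraries (2.77 ± 0.91, adjusted p = 0.738) and by the stricter one without wild type 2 (2.64 ± 0.56, adjusted p = 0.00626). Wild type 2 held 1 count of it. *Cacna1c*, the pore subunit of the L-type calcium channel, rose by the looser criterion with and without wild type 2 (34.1, 0, and 21.3 CPM against 142, 350, and 59.3 CPM, 2.66 ± 1.12, adjusted p = 0.738). The most abundant calcium genes overlapped between genotypes: the pump gene *Atp2a2* (8236, 5425, and 9196 CPM against 8191, 7935, and 9336 CPM, adjusted p = 0.99) and its inhibitor phospholamban, *Pln* (adjusted p = 0.948). Of 20 genes of calcium handling and conduction, *Cacna1c* was called higher (1.31% of all genes were) and 0 lower, and the median was -0.03. Of 15 cardiac transcription factor genes, 0 were called in either direction.

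Most collagen genes had negative differences in Scx-/- hearts, few of them called. The study names *Col1a1*, *Col1a2*, and *Serpinh1* for this tissue, so their values on the same samples are not independent evidence of a direction. *Col1a1*, a chain of type I collagen, had 336, 27, and 308 counts in wild types (764, 2401, and 1094 CPM) and 124, 84, and 75 counts in Scx-/- hearts (566, 526, and 404 CPM). *Col1a2*, the other chain, had 727, 2935, and 902 CPM in wild types and 470, 701, and 404 CPM in Scx-/- hearts. Neither gene overlapped between genotypes, and wild type 2 was the highest library for both. The differences were -1.09 ± 0.74 for *Col1a1* (adjusted p = 0.738) and -0.99 ± 0.74 for *Col1a2* (adjusted p = 0.744). Without wild type 2, *Col1a1* fell by the looser criterion (-1.11 ± 0.34, adjusted p = 0.721) and *Col1a2* had a difference of -0.86 ± 0.35, under 2-fold. With DESeq2 on all 6 libraries, both were lower at the study's thresholds (-1.10 ± 0.48 and -1.04 ± 0.51), with an adjusted p of 0.999 for each. *Serpinh1*, the collagen chaperone HSP47, overlapped (409, 2134, and 625 CPM against 475, 275, and 409 CPM, -0.83 ± 0.76, adjusted p = 0.752). *Col3a1*, the chain of type III collagen, did not overlap (1032, 1690, and 1048 CPM against 671, 907, and 517 CPM) and was not called (-0.61 ± 0.72).

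Of 30 genes of fibrillar collagen and collagen processing, 0 were called higher and 2 lower with all libraries (2.09% of all genes were called lower), and 22 of the 30 had a negative difference. With DESeq2, 4 were called lower (1.37% of all genes were), these 2, *Col1a1*, and *Col1a2*. The 2 by edgeR were *P4ha2*, a collagen prolyl hydroxylase subunit (46, 0, and 9 counts against 0 in all Scx-/- hearts, at least 14.1-fold lower, adjusted p = 0.738), and *Lox*, lysyl oxidase, which crosslinks collagen (19, 10, and 24 counts against 0, 0, and 10, -3.06 ± 1.23, adjusted p = 0.738). *Lox* was not called without wild type 2 (adjusted p = 0.873), and *P4ha2* was. The list median was -0.61 with all libraries, -0.73 without wild type 2, and 0.15 without wild type 1, against medians over all genes of -0.06, -0.24, and 0.47 in the same fits. The summed collagen level was 5217, 12184, and 5935 CPM in wild types and 4269, 4318, and 3539 CPM in Scx-/- hearts, with no overlap. Of 16 cardiac fibroblast genes, 0 were called in either direction with all libraries, with 8 differences above and 8 below 0. By DESeq2, *Gsn* was called higher (0.977% of all genes were) and *Thy1*, a surface glycoprotein of fibroblasts (22, 7, and 18 counts against 0, 0, and 11), lower. With wild type 2 left out, 10 were below 0 and *Lum*, the collagen-binding proteoglycan lumican, fell by the looser criterion (271, 0, and 352 CPM against 114, 175, and 97.0 CPM, -1.50 ± 0.57, adjusted p = 0.873). The fibroblast list summed to 4532 to 5069 CPM in wild types and 5782 to 5990 CPM in Scx-/- hearts, and without *Gsn*, left out after the values were seen, to 3185, 4447, and 3676 CPM in wild types and 3548, 2935, and 3232 CPM in Scx-/- hearts, with overlap. The part of fibroblast content in the collagen values was not tested.

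Several matrix regulators had few or no counts in Scx-/- hearts. *Thbs4*, the matricellular protein thrombospondin 4, which the study also names, had 16, 11, and 30 counts in wild types (36.4, 978, and 107 CPM) and 0, 0, and 8 counts in Scx-/- hearts (0, 0, and 43.1 CPM). It fell by the looser criterion (-3.52 ± 1.23, adjusted p = 0.738) but not without wild type 2 (-2.45 ± 1.62, adjusted p = 0.873), and Scx-/- heart 3 lay above wild type 1. *Timp1*, an inhibitor of matrix metalloproteinases, was more uniform, with 29, 4, and 17 counts in wild types and 0 in all Scx-/- hearts. It was at least 12.8-fold lower and called with and without wild type 2 (adjusted p = 0.615 and 0.873). *Sox9*, a transcription factor of cartilage and valve cells, had 21, 0, and 42 counts in wild types and 0 in Scx-/- hearts, at least 16.2-fold lower (adjusted p = 0.738). By contrast, decorin, *Dcn*, was level at 1459, 1690, and 1627 CPM in wild types and 1845, 1170, and 1325 CPM in Scx-/- hearts, with overlap.

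By list, 0 of 29 proteoglycan and matricellular genes were called higher and 2 lower (*Thbs4* and *Timp1*, median -0.29), and 0 of 14 valve and tendon genes were called higher and 2 lower (*Thbs4* and *Sox9*, median -1.04), where 2.09% of all genes were called lower. Without wild type 2, the lower genes were *Timp1* and *Lum* in the first list and *Sox9* in the second (1.34% of all genes were lower). The valve and tendon list summed to 273, 1601, and 551 CPM in wild types and to 224, 144, and 167 CPM in Scx-/- hearts, but *Tnmd* and *Mkx*, which mark tendon, were at 0 in all 6 libraries, and most of its members had low counts. The valve content of each sample was not tested. Among 15 basement membrane genes, *Lama5*, a laminin chain, was called higher (0, 0, and 2 counts against 11, 19, and 5, 1.31% of all genes were higher) and 0 lower. It lost that call without wild type 2, where the list median was -0.36 and that of all genes -0.24. DESeq2 called *Lama5* higher and *Col4a4*, a collagen IV chain, lower. In this list, the abundant *Col4a1* did not overlap (830, 978, and 1055 CPM against 667, 626, and 474 CPM) and was not called (adjusted p = 0.879).

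**Figure D3:**
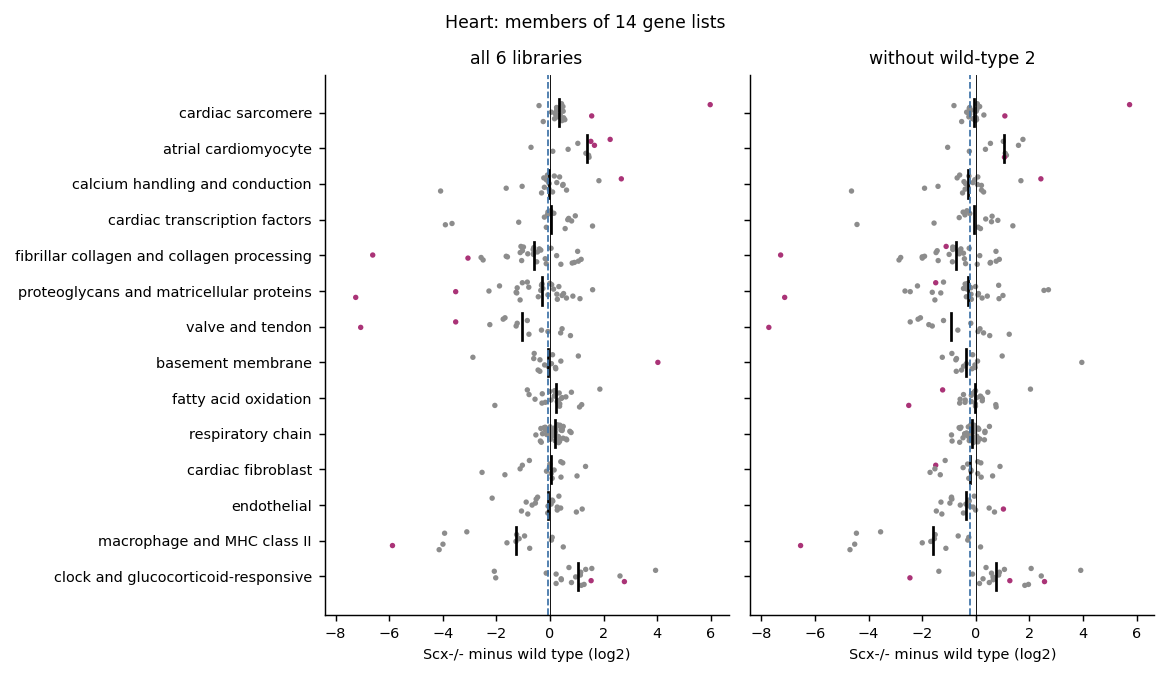
Difference between Scx-/- and wild-type hearts (horizontal axis, log2) for the tested members of 14 gene lists, with all 6 libraries on the left and without wild type 2 on the right. Each dot is a gene, filled in purple where it passes the study's thresholds, the black bar is the list median, and the dashed line is the median of all genes. The medians of the collagen, valve and tendon, and macrophage lists lie below the dashed line and those of the atrial and clock lists above it, in both panels.

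Few genes of energy metabolism were called. Of 45 respiratory chain genes, 0 were called in either direction, with a median of 0.20 (-0.14 without wild type 2, a change of sign), and of 24 fatty acid oxidation genes 0 were called, with a median of 0.23. The fatty acid oxidation median was -0.03 without wild type 2, and then 2 genes were called lower (1.34% of all genes were), *Cpt2*, a mitochondrial carnitine palmitoyltransferase (44 and 150 counts against 47, 19, and 21, -1.24 ± 0.55), and *Ppara*, a nuclear receptor that activates such genes (161 and 156 CPM against 0 to 62.6 CPM, -2.50 ± 0.94), each at an adjusted p of 0.873. The *Cpt2* difference rested on wild type 3, without which it was 0.73. The ATP synthase gene *Atp5a1* did not overlap (5238, 2668, and 6205 CPM against 7830, 7052, and 7262 CPM) and was not called (adjusted p = 0.825). *Hk1*, a hexokinase that commits glucose to use in the cell, was the 1 called member of 19 glycolysis genes (1.31% of all genes were called higher) and rose with and without wild type 2 (43.2, 0, and 85.2 CPM against 228, 200, and 264 CPM, 1.94 ± 0.99, adjusted p = 0.738). *Txnip*, a thioredoxin-binding protein whose gene responds to glucose and glucocorticoids, had 271, 356, and 416 CPM in wild types and 680, 776, and 1406 CPM in Scx-/- hearts, with no overlap. It rose by the looser criterion with all libraries and without wild type 2 (1.53 ± 0.76 and 1.27 ± 0.36, adjusted p = 0.738 and 0.433). Of 20 clock and glucocorticoid-responsive genes, *Txnip* and *Zbtb16* were called higher (1.31% of all genes were) and 0 lower, 17 had a positive difference, and the median was 1.04. Without wild type 2 the median was 0.75, both kept their call, and *Bhlhe40*, a repressor in the clock, was called lower (58 and 27 counts against 0, 4, and 9, -2.46 ± 1.16, adjusted p = 0.873). *Zbtb16*, a zinc finger factor induced by glucocorticoids, was high in Scx-/- hearts 2 and 3 only (22.7, 0, and 24.9 CPM against 18.3, 288, and 205 CPM). *Cirbp*, the cold-inducible RNA-binding protein, also rose (25.0, 0, and 56.8 CPM against 105, 338, and 286 CPM, 2.60 ± 1.04, adjusted p = 0.738). The hour of tissue collection is not stated, and its part in these values was not tested.

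Outside the lists, the higher genes without overlap included *Ptprf*, *Pim3*, *Abcc8*, *Irx3*, and *Ptgds*, all called by the looser criterion with and without wild type 2, each at an adjusted p of 0.738 with all libraries. *Pim3*, a serine/threonine kinase, had 2, 0, and 3 counts in wild types and 21, 25, and 25 counts in Scx-/- hearts (3.94 ± 1.42). *Abcc8*, the sulfonylurea receptor of ATP-sensitive potassium channels, had 8, 0, and 0 counts against 39, 23, and 19 (3.67 ± 1.33). *Irx3*, a homeodomain factor of the ventricular conduction system, had 0 counts in all wild types against 10, 5, and 15. These values were low but even among the Scx-/- hearts. *Ptgds*, prostaglandin D synthase, had 44, 0, and 1 counts against 67, 24, and 83 (2.50 ± 0.96). *Ptprf*, a receptor tyrosine phosphatase, was uneven, with 1, 0, and 0 counts against 3, 9, and 44. *Gsn*, gelsolin, which severs actin filaments, was abundant and did not overlap (1539, 623, and 856 CPM against 2379, 2847, and 2758 CPM), with a difference of 1.32 ± 0.70 (adjusted p = 0.738) that edgeR did not call and DESeq2 did at the study's thresholds (1.42 ± 0.52, adjusted p = 0.999).

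Of the lower genes, several depended on wild type 2 for their call. *Kap*, a kidney androgen-regulated protein with its highest level in kidney, had 24, 41, and 32 counts in wild types (54.6, 3646, and 114 CPM) and 4, 4, and 2 in Scx-/- hearts. It was lower by the stricter criterion with all libraries (-4.83 ± 1.01, adjusted p = 0.00551) and not called without wild type 2 (-2.40 ± 1.45, adjusted p = 0.873), although the genotypes did not overlap in either case. *Unc93b1*, a chaperone that carries Toll-like receptors to endosomes, had 11, 15, and 9 counts against 0 in all Scx-/- hearts, at least 8.99-fold lower with all libraries (adjusted p = 0.0175) and at least 5.22-fold lower without wild type 2 (adjusted p = 0.873, not called). *Hbb-bs*, a beta globin gene with near-identical copies, had 3, 45, and 1 counts against 1, 1, and 3, so its adjusted p of 0.00111 came from wild type 2, and without it the difference was 0.50 (adjusted p = 0.991). *Vash1*, vasohibin 1, had 10, 11, and 16 counts against 0 and was called by the looser criterion in both fits. It passed the stricter one with DESeq2 (adjusted p = 0.0174), with DESeq2-type size factors, with library totals, and without wild type 1, but not with edgeR on all libraries (adjusted p = 0.0762). *B2m*, the light chain of MHC class I, was lower in both fits, with 557, 978, and 785 CPM in wild types and 205, 150, and 318 CPM in Scx-/- hearts. It fell by the looser criterion with all libraries (-1.57 ± 0.79, adjusted p = 0.738) and by the stricter one without wild type 2 (-1.78 ± 0.42, adjusted p = 0.0403). Also lower without wild type 2 were the ribosomal RNA genes listed as *Rnr1* (-0.68 ± 0.11, adjusted p = 4.34e-05) and *Rnr2* (-0.63 ± 0.09, adjusted p = 2.39e-07), both under 2-fold and chosen after their values were seen. Together they made up 8.24% to 16.7% of the counts of a library, and without wild type 1 the differences were 0.48 and 0.20, where the median of all genes was 0.47.

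Markers of other cells varied between samples. Of 14 macrophage and MHC class II genes, *Tyrobp*, an adaptor of myeloid receptors, was called lower in both fits (32, 0, and 2 counts against 0 in all Scx-/- hearts, adjusted p = 0.738; 2.09% of all genes were lower) and 0 higher, with 11 of 14 differences negative and a median of -1.26. DESeq2 called 0 of them. The list summed to 480, 178, and 465 CPM in wild types and 196, 156, and 291 CPM in Scx-/- hearts. Of 10 erythroid genes *Hbb-bs* alone was called, and the list summed to 8271 to 37412 CPM in wild types and 11389 to 28861 CPM in Scx-/- hearts. Of 19 endothelial and 14 smooth muscle and pericyte genes, 0 were called with all libraries. When wild type 2 was left out, the water channel gene *Aqp1* was called higher in the first list (252, 445, and 298 CPM against 552, 813, and 609 CPM, 1.03 ± 0.41, adjusted p = 0.873) and smooth muscle actin, *Acta2*, lower in the second (1005, 2668, and 924 CPM against 402, 932, and 259 CPM, -1.11 ± 0.33, adjusted p = 0.625). DESeq2 called the same 2 genes, in the same directions, on all 6 libraries. Over all genes, 0.835% were higher and 1.34% lower without wild type 2, and 0.977% and 1.37% with DESeq2. Of 14 genes of other organs, *Kap* alone was called by edgeR with all libraries, and DESeq2 called *Kap*, *Scgb1a1*, and *Cela1* lower (2.09% and 1.37% of all genes were lower). This list summed to 896, 6403, and 1264 CPM in wild types and 374, 400, and 1180 CPM in Scx-/- hearts, so wild type 2 carried the most RNA of this kind, and its part in the calls that rest on wild type 2 was not tested. The Y-linked genes *Ddx3y* (0 counts in wild types and 0, 20, and 17 in Scx-/- hearts) and *Eif2s3y* (0 against 0, 15, and 4) were called higher by edgeR and not by DESeq2. *Xist*, transcribed from the inactive X chromosome, had 85, 0, and 30 counts in wild types and 50, 1, and 0 in Scx-/- hearts. The 0 counts of the shallow wild type 2 do not show its sex, and muscle wild type 2 held 122 counts of *Ddx3y* and 30 of *Eif2s3y*. Among the deeper heart libraries, the genotypes differed in sex-linked counts, and the part of sex in the other differences was not tested.

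Skeletal muscle, the other striated tissue of the series, had its own genotype comparison, and the difference between the tissues was tested directly. In an edgeR fit of the 12 heart and muscle libraries with an interaction term, 4 of 15771 genes (0.0254%) had a genotype difference in heart that departed from that in muscle at an adjusted p under 0.05. Among these 4 genes, *Myh7* had the largest positive departure, 8.12 ± 1.09 (log2, heart difference minus muscle difference, adjusted p = 1.78e-09). Muscle held 98.7, 157, and 470 CPM of *Myh7* in wild types and 81.9, 54.4, and 5.77 CPM in Scx-/- mice, the opposite direction to heart. Muscle wild type 1 was shallow too, with 30409 counts against 474118 to 871531 in the other muscle libraries, and its 98.7 CPM of *Myh7* were 3 counts. *Casq1* had a departure of -9.21 ± 1.44 (adjusted p = 1.26e-06). *Myl2* (3.94 ± 0.84, adjusted p = 0.0130) and *Ankrd1* (6.48 ± 1.46, adjusted p = 0.0361) departed through muscle rather than heart. *Myl2* had 1085, 201, and 875 CPM in wild-type muscle and 77.1, 32.4, and 20.8 CPM in Scx-/- muscle, and *Ankrd1*, a stress-responsive ankyrin repeat protein, had 0, 0, and 17 counts in wild-type muscle and 0 in Scx-/- muscle, so that its call rested on 1 muscle library. Without heart wild type 2, *Myh7* was no longer among the called genes and *Casq1*, *Myl2*, and *Ankrd1* were, together with the globin genes *Hba-a1* and *Hbb-bs*. With each of the 12 libraries left out in turn, *Casq1* was called 12 times, *Myh7* 11, *Myl2* 7, and *Ankrd1* 4. Under a replicate block within each tissue, only *Casq1* and *Myh7* were called. The fit treated heart and muscle libraries as independent. The Y-linked *Ddx3y* was found in Scx-/- samples 2 and 3 of both tissues, and in wild type 2 in muscle alone. The tissues may therefore share mice, and such a pairing was not modelled. For the collagen genes no departure was detected: -0.07 ± 0.84 for *Col1a1* and 0.02 ± 0.87 for *Col1a2*.

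**Figure D4:**
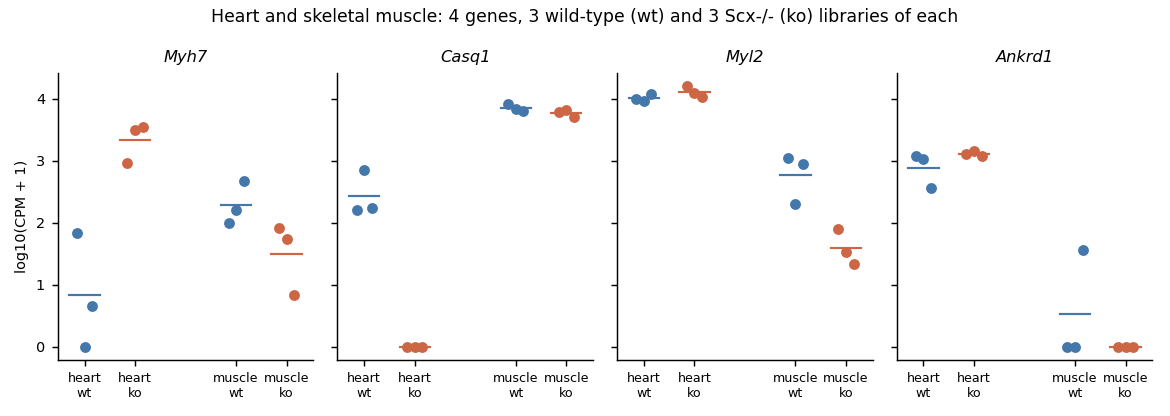
Level of the 4 genes with a tissue-dependent genotype difference, as log10(CPM + 1), in 3 libraries of each tissue and genotype, with wild type (wt) in blue and Scx-/- (ko) in orange. Lines are the means of the plotted values. *Myh7* is higher in Scx-/- heart and lower in Scx-/- muscle on average, *Casq1* is at 0 in Scx-/- heart alone, and *Myl2* differs in muscle.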

How the data were processed

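Whole organs were extracted with Trizol, reverse transcribed with sample barcodes, pooled, and sequenced on the X-Ten platform. The authors mapped reads to mm10 with Bowtie2 and made counts per gene with HTSeq, which they deposited as whole-number counts for 96 samples, with versions not stated. Genes with 0 counts in all 6 heart libraries were left out, as in the methods of the study. Counts were compared between genotypes with edgeR 4.0.16 (TMM factors, robust quasi-likelihood test, R 4.3.3) and Benjamini-Hochberg adjustment, and DESeq2 1.42.0 was an alternative. CPM were computed on library totals, and 3 counts were taken as the floor, for counting error only. Heart and muscle were compared by an interaction term over 12 libraries. On simulated counts, the adjusted threshold missed most changes of 4-fold and of 16-fold, so a gene that was not called may still differ. Gene lists (30) and named genes (genes the study names, up to 12 largest changes per direction past an adjusted p of 0.05, filled to 8 by lowest p, the 3 most abundant and the called members of each list, sex-linked genes, and the 5 lowest p per direction without wild type 2) were chosen with earlier results of these data known. Not every gene the rule covers is printed. Names and coordinates are from GENCODE vM21 (GRCm38). Replicate numbers come from the sample titles.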

Additional observations from a re-analysis of the deposited data

Results flagged for a closer look

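The genotype difference departed between heart and skeletal muscle for 4 genes in the interaction test (edgeR, 3 libraries of each tissue and genotype). On the log2 scale, as heart difference minus muscle difference, the departure was 8.12 for *Myh7* (adjusted p = 1.78e-09), -9.21 for *Casq1* (adjusted p = 1.26e-06), 3.94 for *Myl2* (adjusted p = 0.0130), and 6.48 for *Ankrd1* (adjusted p = 0.0361). Under a replicate block, only *Myh7* and *Casq1* kept this call. In heart itself, *Myh7* and *Casq1* differed between genotypes at an adjusted p under 0.05, and *Myl2* and *Ankrd1* did not (adjusted p = 0.932 and 0.778). *Casq1* had 0 counts in the Scx-/- hearts and *Ankrd1* 0 counts in Scx-/- muscle, so the fitted size of these 2 departures depends on the prior count and is no bound.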

How the results depend on the processing

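Genes past an adjusted p of 0.05 numbered 5, against 25 with library totals, 2 with edgeR's low-count filter, 1 with a replicate block, and 1 to 8 when each library was left out in turn. Genes past the study's thresholds numbered 436, against 509 with DESeq2-type size factors, 610 with library totals, 300 with DESeq2, 107 with the filter (which tested 3021 genes), 95 with the replicate block, and 182 to 387 with 1 library left out. Collagen calls numbered 2, against 5 with library totals, 4 with DESeq2, and 1 to 2 with 1 library left out. Genes with a tissue-dependent difference numbered 4, against 14 with DESeq2-type size factors, 19 with library totals, 2 with the replicate block, and 2 to 5 with 1 library left out, and the median over all genes moved from -0.36 to -0.16 and -0.11 under the 2 scalings. Samples that shared a replicate number did not deviate together (correlations 0.03, 0.01, and -0.02), so the numbers were not taken to pair them, and under the replicate block *Casq1* had an adjusted p of 0.0595. Not every named gene was recomputed under each setting. Of 6 recomputed genes that changed sign, the differences under the replicate block were 0.22 for *Casq2*, 0.19 for *Rnr1*, and 0.055 for *Rnr2*, and with 1 library left out they ran from -0.26 to 0.46 for *Atp2a2*, -1.24 to 0.73 for *Cpt2*, -0.70 to 0.56 for *Casq2*, -6.43 to 0.50 for *Hbb-bs*, -0.68 to 0.48 for *Rnr1*, and -0.63 to 0.20 for *Rnr2*, while the median of all genes ran from -0.33 to 0.47 in the same fits. *Myh7* passed the adjusted threshold under every alternative run except without wild type 2. The cause of these shifts was not tested. Depth limits low genes most, since a gene under 267 CPM could have fewer than 3 counts in wild type 2.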

Other observations

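The remaining lists held few calls by edgeR, which called 1.31% of all genes higher with all libraries and 0.835% without wild type 2. Of 17 proliferation genes, *Plk1*, a mitotic kinase, was called higher and 0 lower, on 0, 14, and 3 counts in Scx-/- hearts against 0 in wild types. Of 7 mesothelium and epicardium genes, *Krt8*, a simple epithelial keratin, was called higher and 0 lower, on 13 counts of Scx-/- heart 2 alone. Neither call was made by DESeq2 or without wild type 2, where *Krt19*, another keratin of the same list, was called higher (0 counts in the deep wild types against 12, 3, and 10). Of 19 immediate early and heat shock genes, *Cirbp* alone was called. *Hspa8*, a constitutive chaperone with many near-identical copies, had 193, 1, and 184 counts in wild types and 2, 109, and 0 in Scx-/- hearts, so both genotypes held a library with over 100 counts and the Scx-/- hearts differed by more among themselves than from the wild types. Of 15 stress and fetal program genes, *Myh7* and *Nppa* were the 2 called by edgeR with all libraries, both higher, and DESeq2 also called *Acta2* lower. *Acta1*, skeletal alpha actin of the fetal heart, had 425, 88.9, and 217 CPM in wild types and 36.5, 307, and 37.7 CPM in Scx-/- hearts. It was lower by the study's thresholds without wild type 2 (log2 -1.64 ± 0.56, edgeR adjusted p = 0.873), as was *Acta2* by edgeR. Over all genes, 1.34% were called lower without wild type 2 and 1.37% by DESeq2. *Nppb*, which encodes brain natriuretic peptide, had 0 counts in wild types and 4, 2, and 5 in Scx-/- hearts and was not called. The lists of neutrophil, T cell, adipocyte, and nerve genes had 0 calls.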
